A study of Mus musculus with 6 samples.

Results

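The genes described here encode the structural proteins of the sarcomere, the contractile unit of striated muscle. They were taken by name from the deposited gene table, and all 44 genes of the list were found among its 46983 rows. By the place of the protein, 18 belong to the thin filament, 9 to the thick filament and 17 to the Z-disc and M-band. Messenger RNA was sequenced from wild-type C2C12 myotubes, a mouse muscle cell line below passage 7, after 7 days in medium with horse serum and then 24 h of treatment. By their labels, 3 libraries are from myotubes given corticosterone, the main rodent glucocorticoid, at 1e-07 M. By their labels, 3 are from myotubes given its vehicle, ethanol, at 1 µL/mL. C2C12 is a single cell line, and a dish of its myotubes also holds cells that have not fused. The libraries are called COR1, COR2 and COR3 for those labelled corticosterone replicates 1 to 3, and VEH1, VEH2 and VEH3 for those labelled vehicle replicates 1 to 3.

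Total counts ran from 25826081 to 29928653 in the libraries labelled corticosterone and from 23877583 to 28496898 in those labelled vehicle. Values are CPM, the counts per 1000000 counts of the library after TMM scaling, and a count of 3 equals 0.103 to 0.125 CPM. Genes that glucocorticoids induce went against the labels in 2 libraries. Fkbp5, whose product binds the receptor complex, stood at 151, 36.9 and 135 CPM in COR1, COR2 and COR3, against 36.9, 177 and 35.4 CPM in VEH1, VEH2 and VEH3. Tsc22d3 and Per1 split the libraries in the same way, with COR1, COR3 and VEH2 above the rest. Whether the labels of COR2 and VEH2 are exchanged could not be settled here, so every mean, difference and overlap by label takes the labels as given. Over all 14450 genes tested, the nearest library of COR1 was VEH3, that of COR2 was COR3 and that of VEH1 was VEH2, at root mean square log2 distances of 0.359, 0.399 and 0.362. The sarcomere genes are therefore given by label, in the arrangement of COR1, COR3 and VEH2 against the rest, and across these 3 pairs. The last 2 arrangements were drawn from these same libraries, are no groups of the study and carry no test.

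In a sarcomere, thin filaments of actin, tropomyosin and troponin slide past thick filaments of myosin. The Z-disc anchors the thin filaments through alpha-actinin, the M-band links the thick filaments through myomesin, and titin spans from one to the other. As myotubes mature, early forms such as cardiac alpha-actin and the embryonic myosin light chain give way to adult fast or slow forms. Many sarcomere genes carry CArG boxes, which bind serum response factor, or MEF2 sites in their control regions. Prolonged excess of glucocorticoid is known for causing muscle wasting.

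No sarcomere gene passed edgeR's test between corticosterone and vehicle by label. Of the 44 genes, 42 passed the filter on low counts, and 0 of them had an adjusted p under 0.05 in edgeR's quasi-likelihood test, as did 0 of all 14450 genes tested (0%). At an unadjusted p under 0.05 there were 5 sarcomere genes with a higher and 2 with a lower level in the libraries labelled corticosterone, where 5.55% of all genes were higher and 6.26% lower. DESeq2 called 2 sarcomere genes, Actc1 and Ldb3, both higher, where it called 1.04% of all genes, and limma-voom called 0. The log2 difference, corticosterone minus vehicle, was positive for 26 and negative for 16, with a median of 0.105. Over all genes tested it was positive for 50.8%, with a median of 0.004. The median of the sarcomere genes was 0.009 without COR1, 0.023 without VEH1, 0.069 without VEH2, 0.20 without COR2 and 0.197 without VEH3. With COR2 and VEH2 both left out it was 0.177, with 32 positive and 10 negative, and again 0 were called.

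**Figure D1:**
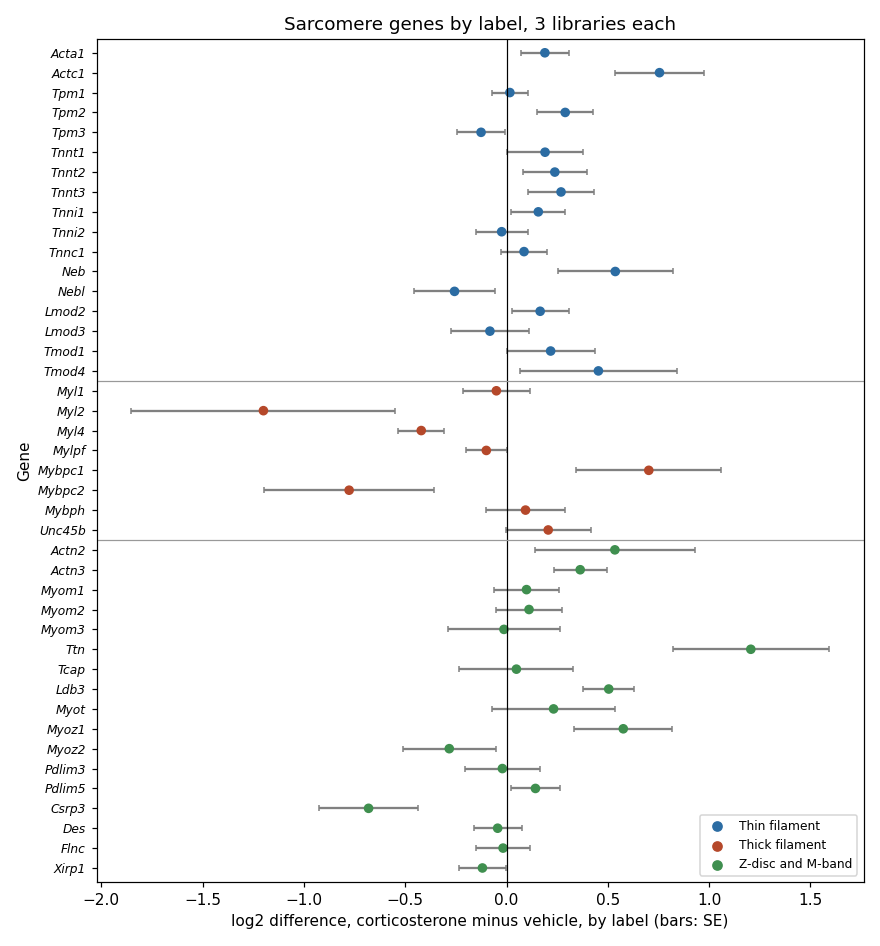
Log2 difference of each of the 42 sarcomere genes tested, corticosterone minus vehicle by label, with bars of 1 SE on the horizontal axis and genes down the page by place in the sarcomere. Ttn lies farthest to the right at 1.21 and Myl2 farthest to the left at -1.20.

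Levels per length differed widely between members. Length here joins the exons of all annotated transcripts of a gene, so it can exceed the length of its messages. Over the 6 libraries, the mean CPM per kilobase of exon was 2842 for Acta1, 2474 for Mylpf, 1583 for Tnnc1, 1017 for Myl1, 993 for Tpm2, 953 for Tnnt3 and 933 for Actc1. Des reached 677 and Actn3 348 CPM per kilobase. At the other end, Tmod4 stood at 0.891 and Nebl at 0.204 CPM per kilobase, the lowest of the genes that passed the filter. Both fast and slow or cardiac forms were thus among the abundant messages, since Mylpf, Myl1, Tnnt3 and Actn3 are fast forms and Tnnc1 and Actc1 are slow or cardiac ones.

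In the thin filament, the log2 difference was above 0 for 13 of the 17 genes tested and below 0 for 4. Its median was 0.19 with all libraries, 0.101 without COR1 and 0.074 without VEH1. Acta1 encodes the alpha-actin of adult skeletal muscle (ENSMUSG00000031972, GRCm38 chromosome 8, 123891769 to 123894751). It stood at 4683, 4461 and 4811 CPM in COR1, COR2 and COR3, against 3542, 4259 and 4437 CPM in VEH1, VEH2 and VEH3. Every library labelled corticosterone was above every library labelled vehicle, by little in the nearest case, and the log2 difference was 0.19 ± 0.12 (SE, edgeR adjusted p = 0.541). It was 0.09 without VEH1 and 0.245 without VEH3.

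Actc1 encodes cardiac alpha-actin, the alpha-actin of immature skeletal muscle (ENSMUSG00000068614, chromosome 2, 114047282 to 114053548). Its levels were 1996, 1517 and 2176 CPM in COR1, COR2 and COR3, against 800.2, 1197 and 1373 CPM in VEH1, VEH2 and VEH3. The labels did not overlap, with means of 1896 ± 341 against 1123 ± 293 CPM (SD, n = 3 each). The log2 difference was 0.76 ± 0.22 (SE), with an edgeR adjusted p of 0.364 and a DESeq2 adjusted p of 0.0408. With 1 library left out it ran from 0.554 (without VEH1) to 0.917 (without VEH3), and edgeR's adjusted p from all these fits was at least 0.11. Actc1, Acta1 and the smooth muscle actin gene Acta2 encode near-identical proteins. Any reads that match more than 1 of these genes could be split or lost in counting, and their number was not tested.

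The promoters of Actc1 and Acta1 are shown with that of Ldb3, a Z-disc gene described with its class. These are 3 of the 4 genes that were higher without overlap by label, and each held a CArG box match before its start. The genes were picked by both traits, so they cannot show a link between the traits. The promoter of Ttn is shown because COR1 and COR2 stood far above VEH1 and VEH2 in this gene. The sequences are from RefSeq (GRCm38.p6), read 5′ to 3′ on the gene's minus strand. Capitals mark the CArG box match in the first 3 and a MEF2 site match in Ttn. Ldb3 has 2 starts in RefSeq, and the start with the most CArG box and MEF2 site matches is shown. The RefSeq start of Actc1 lies within the GENCODE M21 coordinates given for the gene above, so the stretch shown lies inside them.
Actc1, chr2:114052888-114053025, from 150 to 13 bases before the start: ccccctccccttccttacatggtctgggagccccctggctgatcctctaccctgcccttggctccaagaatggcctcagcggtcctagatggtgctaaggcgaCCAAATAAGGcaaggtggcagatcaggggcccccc
Acta1, chr8:123894776-123894925, from 150 to 1 bases before the start: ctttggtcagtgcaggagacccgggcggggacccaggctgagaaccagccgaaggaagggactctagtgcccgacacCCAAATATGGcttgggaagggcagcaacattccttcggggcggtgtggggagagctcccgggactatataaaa
Ldb3, chr14:34588694-34588831, from 150 to 13 bases before the start: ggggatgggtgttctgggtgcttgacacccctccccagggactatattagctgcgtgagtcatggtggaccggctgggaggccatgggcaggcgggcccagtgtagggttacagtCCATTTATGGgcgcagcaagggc
Ttn, chr2:76982548-76982797, from 250 to 1 bases before the start: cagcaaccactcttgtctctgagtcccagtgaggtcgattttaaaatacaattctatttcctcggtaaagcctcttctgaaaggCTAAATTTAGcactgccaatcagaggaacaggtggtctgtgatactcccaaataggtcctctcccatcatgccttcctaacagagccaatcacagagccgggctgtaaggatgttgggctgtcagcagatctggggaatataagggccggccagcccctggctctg

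The RefSeq table held promoters of 34 of the 44 sarcomere genes, 25 of them with 1 start. In the 250 bases before the start, searched on both strands, 6 of the 34 (17.6%) held a CArG box, against 1.62% of all 27025 genes in the table. These were Acta1, Actc1, Ldb3, Myl3, Myom1 and Nebl. A MEF2 site was found in 3 (8.82%), Myom3, Myoz2 and Ttn, against 3.42% of all genes. The E-box CANNTG, which binds myogenic factors such as MyoD, was found in 85.3% of the sarcomere genes and 69.3% of all genes, and the glucocorticoid receptor half-site AGAACA in 23.5% and 18.2%. The CArG box and the MEF2 site need letters beyond the 4 bases and are given by name. A match is a description of the sequence. Of the other genes with a CArG box match, Myl3 was hardly detected and Nebl was low in these libraries. Myom1, at a mean of 200 CPM, overlapped between the labels, with a log2 difference of 0.10 ± 0.16 (SE).

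Tropomyosin lies along the actin filament. Tpm2 stood at 3305, 2896 and 3333 CPM in COR1, COR2 and COR3, against 2192, 2593 and 3015 CPM in VEH1, VEH2 and VEH3, where VEH3 was above COR2. Tpm1 gave 1780, 1736 and 1826 CPM against 1817, 1828 and 1636 CPM, and was the sarcomere gene with the smallest ratio of highest to lowest library, at 1.12. Tpm3 was lower in level, between 262 and 355 CPM under corticosterone and between 318 and 337 CPM under vehicle by label.

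The troponins hold tropomyosin in place until calcium binds. Tnnt3, fast troponin T, stood at 1810, 1458 and 1680 CPM in COR1, COR2 and COR3, against 1118, 1309 and 1679 CPM in VEH1, VEH2 and VEH3. Tnnc1, the calcium-binding subunit of slow and cardiac muscle, stood at 1744, 1548 and 1799 CPM against 1448, 1566 and 1780 CPM. In both genes VEH3 was as high as libraries labelled corticosterone, so the labels overlapped. Tnnt1 (slow), Tnnt2 (cardiac), Tnni1 (slow) and Tnni2 (fast) had log2 differences of 0.19 ± 0.19, 0.24 ± 0.16, 0.16 ± 0.13 and -0.02 ± 0.13 (SE). With 1 library left out, Tnnt1 ran from 0.059 to 0.42, Tnnt2 from 0.111 to 0.394 and Tnni1 from 0.074 to 0.257, each lowest without VEH1. Tnnt3 ran from 0.136 without VEH1 to 0.434 without VEH3, and Tnnc1 from 0.013 to 0.163 between the same fits. Tnnc2, fast troponin C, had counts of 3, 5 and 2 in COR1, COR2 and COR3 and of 2, 1 and 3 in VEH1, VEH2 and VEH3, and was under the filter. Of its 800 exon bases in GENCODE M21, 592 (74%) are shared with Ube2c on the other strand, and without strand the reads of both cannot be told apart, so its level is uncertain.

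Nebulin, a ruler of thin filament length, is encoded by Neb (chromosome 2, 52136647 to 52378474). Its level was 1388, 1253 and 775 CPM in COR1, COR2 and COR3, against 582, 679 and 1094 CPM in VEH1, VEH2 and VEH3. COR1 and COR2 were highest and VEH1 and VEH2 lowest, with COR3 and VEH3 between them in an order that crossed the labels. The log2 difference was 0.54 ± 0.29 (SE, edgeR adjusted p = 0.486), and it ran from 0.355 without VEH1 to 0.845 without VEH3. Tmod4, which caps the pointed end of the filament, was among the least abundant, at 2.24, 1.34 and 1.73 CPM against 0.743, 1.14 and 2.00 CPM. Its relative Tmod1 ranged from 74.3 to 139 CPM against 81.3 to 107 CPM, and 32.6% of its exon bases are shared with Tstd2. The leiomodins Lmod2 and Lmod3, which start actin filaments, had log2 differences of 0.17 ± 0.14 and -0.08 ± 0.19, and Nebl, a smaller relative of nebulin, -0.26 ± 0.20 (SE).

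In the thick filament, 3 of the 8 genes tested lay above 0 and 5 below it, and the median log2 difference was -0.075. Without COR2 the median turned to 0.019. Mylpf, the fast regulatory light chain of myosin, stood at 2484, 2382 and 2744 CPM in COR1, COR2 and COR3, against 2835, 2566 and 2753 CPM in VEH1, VEH2 and VEH3. Myl1, the fast essential light chain, stood at 2468, 1633 and 2115 CPM against 1960, 2063 and 2413 CPM. Neither separated the labels, and Myl1 was highest in COR1 and lowest in COR2.

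Myl4, the essential light chain of embryonic muscle and the atria, was the only thick filament gene without overlap between the labels (ENSMUSG00000061086, chromosome 11, 104550663 to 104595753). It stood at 886, 678 and 743 CPM in COR1, COR2 and COR3, against 1006, 1076 and 1007 CPM in VEH1, VEH2 and VEH3. Means were 769 ± 107 and 1030 ± 40.0 CPM (SD, n = 3 each). The log2 difference was -0.42 ± 0.11 (SE), with an edgeR adjusted p of 0.364 and a DESeq2 adjusted p of 0.051. COR2 and COR3 were lowest, and with 1 library left out the difference ran from -0.536 to -0.338.

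Myl2 and Mybpc2 split COR2 and COR3 from all other libraries. COR2 and COR3 also lay below all other libraries, by less, in Myl4, Csrp3, Tpm3, Nebl and Myoz2. Over all genes, this pair had the lowest midpoint for 32.1%. Myl2, the regulatory light chain of slow and ventricular muscle (ENSMUSG00000013936, chromosome 5, 122100951 to 122113472), stood at 25.4, 3.94 and 4.48 CPM in COR1, COR2 and COR3. In VEH1, VEH2 and VEH3 it stood at 27.5, 24.2 and 26.3 CPM. COR1 thus lay among the libraries labelled vehicle, and the ratio of highest to lowest library was 6.99. Mybpc2, fast myosin-binding protein C, stood at 79.2, 21.7 and 32.1 CPM against 74.8, 72.6 and 80.5 CPM, again with COR1 among the vehicle levels. By label the log2 differences were -1.20 ± 0.65 and -0.78 ± 0.42 (SE, edgeR adjusted p = 0.494 and 0.49). Without COR1, edgeR called both, at -2.63 (adjusted p = 0.0053) and -1.502 (adjusted p = 0.0442). These were the only calls among the sarcomere genes in the fits that left out 1 library. Without COR1, the libraries labelled corticosterone are COR2 and COR3, one of the near pairs and the libraries in which both genes were low. That fit tested 14607 genes, and its calls over all genes are given in the closing section.

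Mybpc1, slow myosin-binding protein C, did not follow Mybpc2. It gave 128, 44.1 and 76.8 CPM in COR1, COR2 and COR3, against 38.2, 55.3 and 59.5 CPM in VEH1, VEH2 and VEH3. COR1 was far above the rest, and without it the log2 difference of 0.70 ± 0.36 (SE) became 0.243. Mybph, a relative of the C proteins, gave 1602, 1139 and 1162 CPM against 979, 1162 and 1515 CPM, and 49.9% of its exon bases are shared with Adora1. Unc45b, a chaperone that folds myosin heads, gave 121, 85.8 and 90.8 CPM against 69.0, 75.4 and 113.9 CPM. Both were highest in COR1 and next in VEH3. Myl3, the slow and ventricular essential light chain, had counts of 15, 5 and 1 against 5, 6 and 5 and was under the filter.

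**Figure D2:**
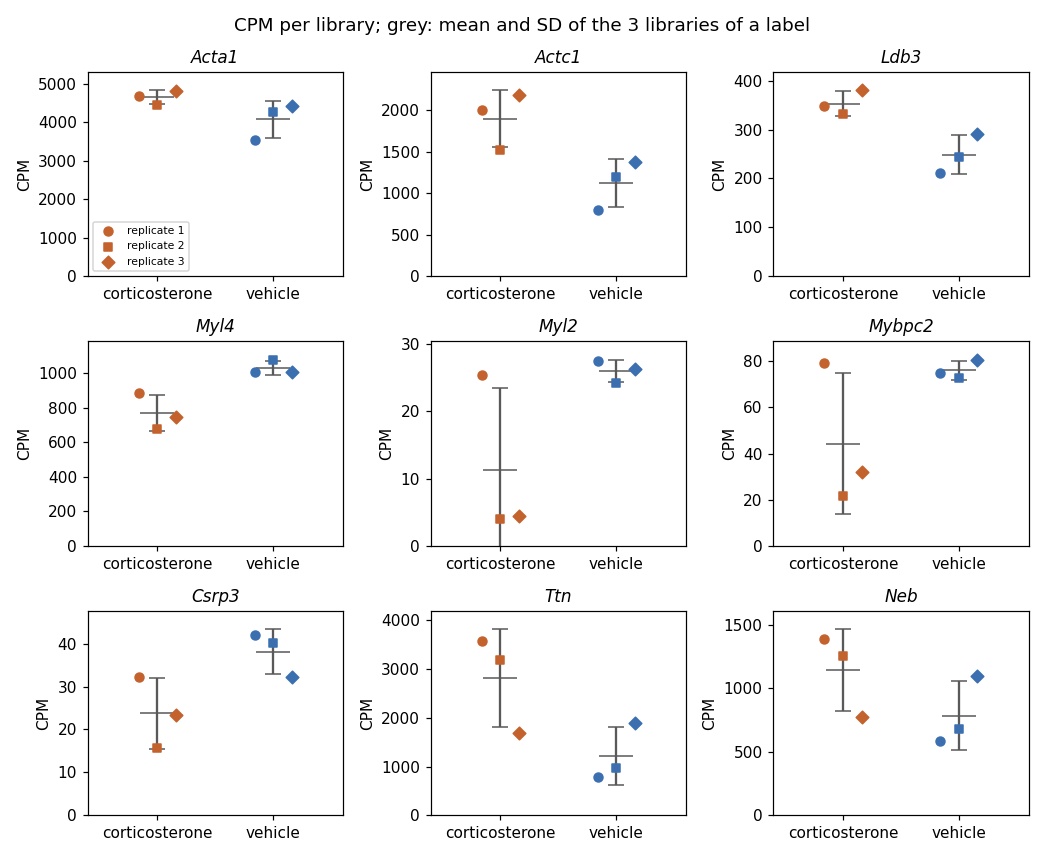
CPM of 9 sarcomere genes in each library on the vertical axis, corticosterone left of vehicle by label, with points by replicate number and grey marks for the mean and SD of 3 libraries (the lower SD bar of Myl2 is cut off at 0). In Myl2 the points of COR2 and COR3 sit at 3.94 and 4.48 CPM while the other 4 libraries sit between 24.2 and 27.5 CPM.

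In the Z-disc and M-band, 10 of the 17 genes tested lay above 0 and 7 below it, and the median log2 difference was 0.099. The median turned to -0.057 without COR1 and to -0.021 without VEH1. Ldb3, whose product Cypher links alpha-actinin to signalling proteins at the Z-disc (ENSMUSG00000021798, chromosome 14, 34526603 to 34588682), stood at 349, 331 and 380 CPM in COR1, COR2 and COR3. In VEH1, VEH2 and VEH3 it stood at 212, 244 and 291 CPM. The labels did not overlap, with means of 353 ± 24.7 against 249 ± 39.9 CPM (SD, n = 3 each). The log2 difference was 0.50 ± 0.13 (SE), with an edgeR adjusted p of 0.364 and a DESeq2 adjusted p of 0.0398.

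Actn3, the fast alpha-actinin, also lay apart, at 1178, 1031 and 1197 CPM in COR1, COR2 and COR3 against 745, 884 and 1017 CPM in VEH1, VEH2 and VEH3. Its log2 difference was 0.36 ± 0.13 (SE, edgeR adjusted p = 0.383). In all, 4 sarcomere genes were higher without overlap in the libraries labelled corticosterone (Acta1, Actc1, Actn3 and Ldb3) and 1 was lower (Myl4). Without overlap, 8.41% of all genes were higher and 8.19% lower, or 16.6% in either direction.

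Titin, encoded by Ttn (ENSMUSG00000051747, chromosome 2, 76703980 to 76982547), spans from Z-disc to M-band. It stood at 3564, 3195 and 1687 CPM in COR1, COR2 and COR3, against 787, 978 and 1897 CPM in VEH1, VEH2 and VEH3. COR1 and COR2 were high, VEH1 and VEH2 low, and COR3 was below VEH3, so the labels overlapped. The log2 difference of 1.21 ± 0.38 (SE) did not pass (edgeR adjusted p = 0.364), and it ran from 0.964 without VEH1 to 1.67 without VEH3.

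Ttn and Neb have the most exon sequence of the list, at 117 and 26.6 kb with the exons of all annotated transcripts joined. Levels of long and short genes differed between the libraries. For the 236 other genes with at least 16 kb of exon and a mean of at least 10 CPM, the median log2 deviation from a gene's mean was 0.078, 0.091 and -0.122 in COR1, COR2 and COR3, against -0.034, -0.003 and 0.043 in VEH1, VEH2 and VEH3. For the 1056 genes under 2 kb it was -0.041, -0.052 and 0.080 against 0.047, 0.025 and -0.035. The deviations of Ttn were 1.03, 0.87 and -0.05 against -1.15, -0.83 and 0.12, and those of Neb 0.60, 0.46 and -0.24 against -0.65, -0.43 and 0.26. COR1, COR2 and VEH3 were the 3 highest libraries in each of these long classes, and the part of length in the levels of Ttn and Neb was not tested. Other long members did not all share this order. Nebl, at 15.2 kb, deviated by 0.12, -0.39 and -0.12 against -0.01, 0.16 and 0.25, so COR2 was lowest. Myom1, at 10.5 kb, was highest in COR1 and VEH3 at 0.28 and 0.26, with COR2 at -0.07. Flnc, at 9.4 kb, deviated by 0.14, 0.08 and -0.25 against -0.14, 0.01 and 0.17, and Pdlim5, at 8.9 kb, was highest in COR3 at 0.23.

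Csrp3, the muscle LIM protein of the Z-disc, stood at 32.2, 15.6 and 23.5 CPM in COR1, COR2 and COR3, against 41.98, 40.1 and 32.2 CPM in VEH1, VEH2 and VEH3. COR2 and COR3 were again lowest, and COR1 and VEH3 were nearly equal (log2 difference by label -0.68 ± 0.24, SE, edgeR adjusted p = 0.383). Actn2, the alpha-actinin of all sarcomeres, was highest in COR1, with 202, 76.6 and 102 CPM by label against 60.8, 75.0 and 127 CPM. Its log2 difference of 0.54 ± 0.39 (SE) was 0.027 without COR1. Pdlim3, which binds alpha-actinin, was highest in COR1 and lowest in COR2, with 420, 245 and 336 CPM against 317, 326 and 372 CPM.

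Des, the muscle intermediate filament desmin, stood at 2803, 2228 and 2480 CPM in COR1, COR2 and COR3, against 2422, 2521 and 2799 CPM in VEH1, VEH2 and VEH3. Flnc, muscle filamin, gave 1270, 1222 and 967 CPM against 1044, 1159 and 1296 CPM. Both varied little, and their log2 differences by label were -0.04 ± 0.12 and -0.02 ± 0.13 (SE). Among the myomesins of the M-band, Myom2 gave 1095, 908 and 911 CPM against 741, 845 and 1111 CPM, with COR1 and VEH3 highest. Myom1 and Myom3 were likewise highest in COR1 and VEH3, with log2 differences of 0.10 ± 0.16 and -0.01 ± 0.28 (SE).

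The other Z-disc genes overlapped between the labels. Tcap, which caps titin, ranged from 31.9 to 75.8 CPM under corticosterone and from 47.2 to 60.7 CPM under vehicle by label. Myot, myotilin, ranged from 14.8 to 35.5 CPM against 18.2 to 27.3 CPM. Myoz1 and Myoz2, the calsarcins that tether calcineurin, had log2 differences of 0.58 ± 0.24 and -0.28 ± 0.23, Pdlim5 of 0.14 ± 0.12 and Xirp1, which binds actin, of -0.12 ± 0.12 (SE).

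**Figure D3:**
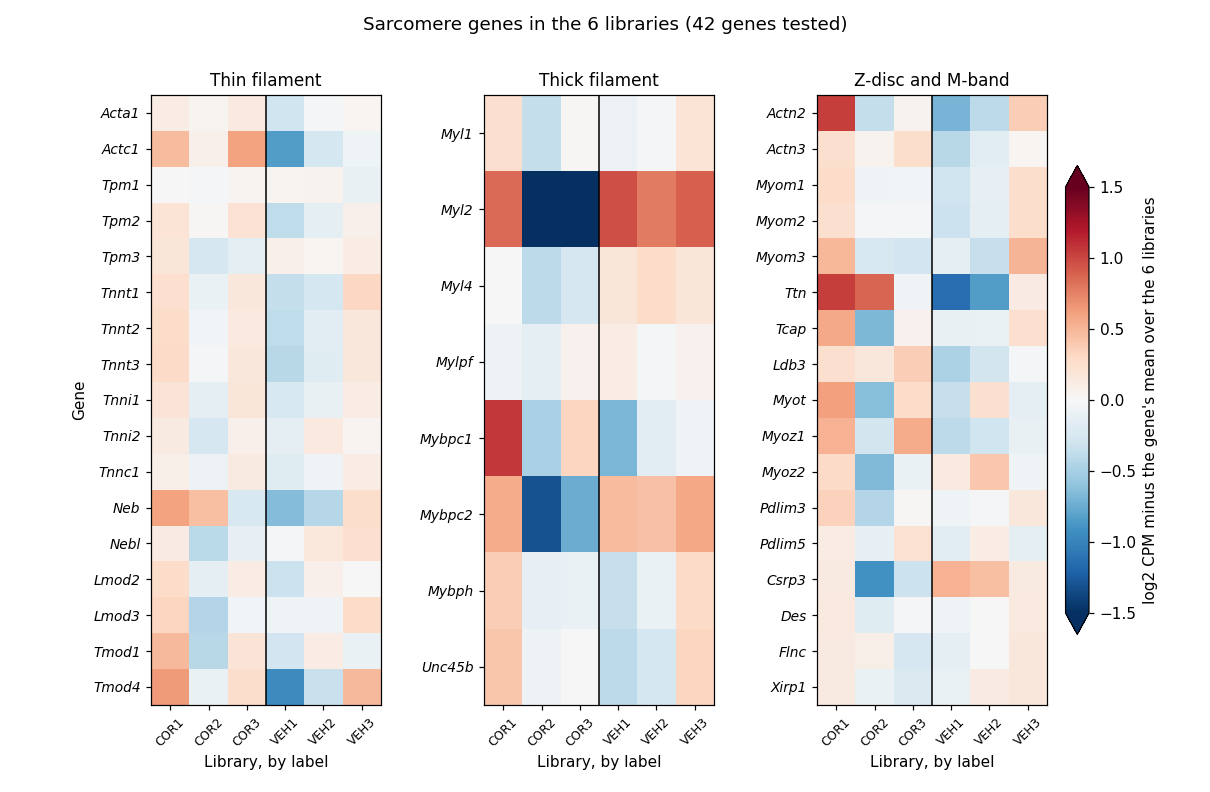
Log2 CPM of each sarcomere gene minus its own mean over the 6 libraries (colour, cut off at 1.5 in either direction), with libraries by label on the horizontal axis and genes by class down the page. COR1 is the highest library for 20 of the 42 genes, and VEH1 the lowest for 22.

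Across the libraries, COR1 was highest for 20 of 42 sarcomere genes, against 13.9% of all genes, and VEH1 lowest for 22, against 20.5%. COR1 was lowest for 0, against 14.9% of all genes, and COR2 highest for 0, against 17.9%. The pair of COR1 and VEH3 had the highest midpoint for 32 of 42 sarcomere genes, where it was highest for 29.7% of all genes. The pair of COR2 and COR3 was lowest for 19 and that of VEH1 and VEH2 for 22, against 32.1% and 37.1% of all genes. In the thin filament the pair of VEH1 and VEH2 was lowest for 11 of 17, and in the thick filament the pair of COR2 and COR3 was lowest for 5 of 8. The midpoints of the pairs were spread wider than the largest difference within a pair for 30 sarcomere genes (71.4%) and for 56.5% of all genes.

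Myl2 had the widest spread between pairs, with COR2 and COR3 at -1.73 log2 units from its mean and the other pairs at 0.87 each. Mybpc2 came next, at -1.03 for COR2 and COR3, against 0.57 for COR1 and VEH3 and 0.46 for VEH1 and VEH2. Ttn stood at -0.99 for VEH1 and VEH2, against 0.58 for COR1 and VEH3 and 0.41 for COR2 and COR3. Summed over the 44 genes, the level was 42550, 35540 and 37900 CPM in COR1, COR2 and COR3, against 29970, 33350 and 38610 CPM in VEH1, VEH2 and VEH3. VEH3 was thus above COR2 and COR3.

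Within each pair, the library with the higher level of Fkbp5, Tsc22d3 and Per1 had the higher level of most sarcomere genes. COR1 was above VEH3 for 31 of 42, COR3 above COR2 for 37 and VEH2 above VEH1 for 36, where the shares over all genes were 49.5, 49.3 and 50.4%. The median log2 differences within the pairs were 0.087, 0.216 and 0.183, against -0.003, -0.004 and 0.002 over all genes. In 27 sarcomere genes (64.3%) all 3 differences were positive, and in 1, Myom3, all were negative, where 20.0% and 20.5% of all genes were so. The 27 comprised 12 of 17 in the thin filament, 4 of 8 in the thick filament and 11 of 17 in the Z-disc and M-band. Other lists also differed within these pairs. In the same order of pairs, the differences were positive in 23, 23 and 25 of the 32 further sarcomere and myofibril genes, in 16, 12 and 15 of the 18 non-muscle and smooth muscle relatives and in 10, 9 and 13 of the 22 regulators. They were positive in 4, 5 and 5 of the 6 myotube markers and in 3, 3 and 4 of the 4 smooth muscle markers tested. For the 3 cardiac markers tested, 2 were positive in every pair. For the 4 myoblast markers tested, 3, 2 and 1 were positive. They were positive in 0, 1 and 1 of the 5 cycling markers and in 1 of the 4 fibroblast markers in every pair. No difference between the lists was tested. Genes of 1 library share its culture and depth, so they are not independent of each other.

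Actc1 differed by nearly the same amount in every pair, at 0.54 (COR1 minus VEH3), 0.52 (COR3 minus COR2) and 0.58 (VEH2 minus VEH1) on the log2 scale. Acta1 differed by 0.08, 0.11 and 0.27 in the same order. Mybpc1 differed by 1.11, 0.80 and 0.53, Myot by 0.76, 0.91 and 0.58 and Tmod1 by 0.59, 0.61 and 0.40. Pdlim5, which has a PDZ domain and binds alpha-actinin, differed by 0.25, 0.35 and 0.28.

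Ttn and Neb did not follow this order. Ttn differed by 0.91, -0.92 and 0.31 and Neb by 0.34, -0.69 and 0.22, so COR3 was below COR2 in both. Myl2 differed by -0.05, 0.18 and -0.18 and Mybpc2 by -0.02, 0.57 and -0.04. For Myl2 the differences within pairs were small beside that between pairs. Set directly against the rest, COR1, COR3 and VEH2 were all higher for 5 sarcomere genes (Tnni2, Lmod2, Tmod1, Myot and Pdlim5) and all lower for 0, where 4.89% of all genes were higher and 4.74% lower, or 9.63% in either direction. Tnni2, for example, gave 637, 615 and 643 CPM in COR1, COR3 and VEH2, against 488, 525 and 600 CPM in COR2, VEH1 and VEH3.

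**Figure D4:**
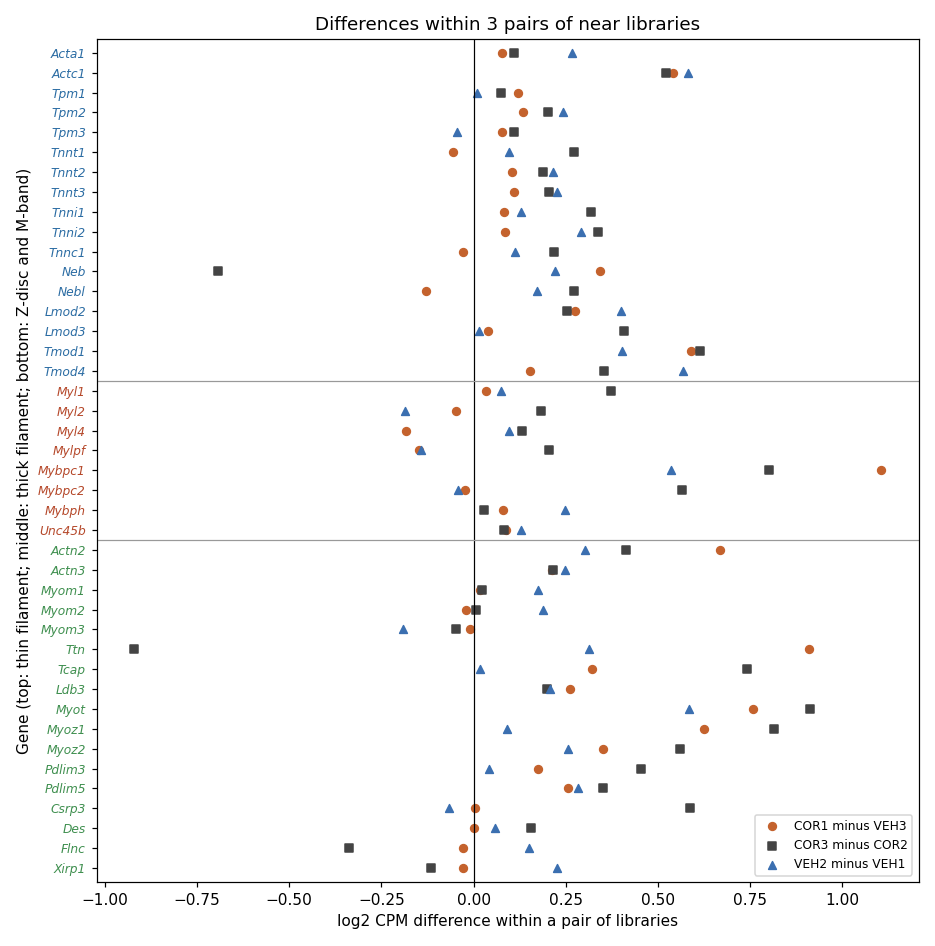
Log2 CPM difference within each of the 3 pairs of near libraries (horizontal axis: COR1 minus VEH3, COR3 minus COR2 and VEH2 minus VEH1) for the 42 sarcomere genes tested, by class down the page. Most points lie right of 0, with 31, 37 and 36 of 42 positive, while the COR3 minus COR2 points of Ttn and Neb lie at -0.92 and -0.69.

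Isoform shares were computed from CPM per kilobase, with the exons of all annotated transcripts of a gene joined into its length. They compare libraries and do not give the true proportions of the forms. Tnnt2, for example, had a mean of 1500 CPM over 7.752 kb of exon, and Tnnt3 of 1509 CPM over 1.583 kb. Actc1 made up 28.8, 24.4 and 30.04% of the sum of Actc1 and Acta1 in COR1, COR2 and COR3, against 17.7, 21.1 and 22.7% in VEH1, VEH2 and VEH3, so the labels did not overlap. The share of Myl4 in Myl1 and Myl4 was 13.8, 15.7 and 13.6% against 18.7, 18.9 and 15.7%, with COR2 and VEH3 nearly equal. Slow Tnni1 made up 51.5, 52.5 and 52.2% of the troponin I genes against 48.9, 46.1 and 51.5%. Slow Tnnt1 varied between 20.9 and 23.5% of Tnnt1 and Tnnt3 over the 6 libraries, and cardiac Tnnt2 between 13.5 and 14.0% of the 3 troponin T genes. Tpm1 made up 18.7, 20.5 and 19.1% of the 3 tropomyosin genes against 25.8, 23.0 and 18.8%.

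Other genes of the sarcomere, its regulators and cell state markers were read from lists. Of 32 further sarcomere and myofibril genes tested, 20 lay above 0 and 12 below it, with a median log2 difference of 0.07. By edgeR 0 passed (2 higher and 1 lower at an unadjusted p under 0.05), and by DESeq2 0. For this list and the others here, the shares over all genes were 5.55% higher and 6.26% lower at that unadjusted p. DESeq2 called 1.04% of all genes and edgeR 0%. The most abundant, the myosin heavy chain genes Myh1 (adult fast) and Myh3 (embryonic), stood at 2729, 1165 and 1411 CPM against 1731, 2241 and 2298 CPM, and at 1586, 1901 and 1772 CPM against 974, 897 and 1714 CPM. Of 22 regulators tested, 13 lay above 0 and 9 below it, with a median of 0.02, and 0 passed by edgeR (3 higher and 1 lower at an unadjusted p under 0.05) or by DESeq2. Myog (myogenin) and Nfix, the most abundant, had log2 differences of 0.13 ± 0.13 and 0.05 ± 0.08 (SE). Of 18 genes for non-muscle and smooth muscle relatives of sarcomere proteins, 13 lay above 0 and 5 below it, with a median of 0.10. By edgeR 0 passed (3 higher and 0 lower at an unadjusted p under 0.05), and by DESeq2 1, Lmod1 (adjusted p = 0.0498). Acta2 and Actb led them, at 2547, 3017 and 3328 CPM against 2061, 2500 and 2077 CPM, and at 1949, 1857 and 2054 CPM against 1692, 1828 and 1713 CPM.

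Markers of cell state were read by label as well. The 6 myotube markers, led by Myh3 and the fusion gene Tmem8c (myomaker), had log2 differences above 0 in 5 and below 0 in 1. Their sum was 6493, 5680 and 6293 CPM in COR1, COR2 and COR3, against 3965, 4297 and 5985 CPM in VEH1, VEH2 and VEH3. VEH3 was thus above COR2. The 5 markers of cycling myoblasts, led by Top2a and Mki67, had log2 differences below 0 in all 5. Of these edgeR called 0, as of all genes, and DESeq2 called 2, Top2a and Ccna2, where it called 1.04% of all genes. The sums of the cycling markers ran from 149 to 169 CPM against 194 to 213 CPM. The myoblast markers Pax7 and Heyl summed with their list to between 164 and 203 CPM against 116 to 202 CPM, and Pax3 was at 0 to 0.079 CPM. All 4 myoblast markers tested had log2 differences above 0. Of smooth muscle markers, led by Acta2 and Tagln, Myh11 was at 0.125 to 0.274 CPM, and the list summed to 2948 to 3818 CPM against 2392 to 2936 CPM. All 4 smooth muscle markers tested had log2 differences above 0. Of 3 cardiac markers tested, Myh6, which made up most of their sum, and Nkx2-5 had log2 differences of 0.78 ± 0.46 and 0.55 ± 0.57, and Tnni3 of -0.53 ± 0.41 (SE). The list summed to 15.7 to 38.4 CPM against 9.58 to 22.6 CPM, with Nppa at 0 to 0.117 CPM. The fibroblast markers summed to 625 to 1148 CPM against 567 to 783 CPM, most of it Col1a1, with a log2 difference of 0.56 ± 0.23 (SE). The other 3, Pdgfra, Dcn and Lum, had log2 differences of -0.21, -0.88 and -0.94. The part of these markers in the sarcomere levels was not tested, and fewer myotubes and less of a message per myotube cannot be told apart in bulk RNA.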

How the data were processed

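The deposited values are whole-number read counts for each gene in 6 libraries, in 1 table. Per the submitters' processing notes, HISAT2 2.0.5, HTSeq 0.6.1, DESeq2 1.24.0 and mm10 were used; their roles, the annotation release, the strand setting and any filter were not given in the sources used here. Where genes overlap, counts made without strand do not separate them.

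The members and lists were chosen with earlier results of these data known. Of 46983 gene identifiers, 46488 matched GENCODE M21 (GRCm38), which gave exon lengths and overlaps; Mymk is listed as Tmem8c. Corticosterone was compared with vehicle by edgeR 4.0.16 (R 4.3.3, quasi-likelihood, TMM, filterByExpr, two-sided, Benjamini-Hochberg over 14450 genes, threshold 0.05). log2 CPM used a prior count of 2. DESeq2 1.42.0, limma-voom (limma 3.58.1), 3 scalings, 2 filters, a replicate block and each library left out were alternatives. The test was checked on simulated data. The submitters describe the replicates as independent. Per-library values were given for each class's 6 genes of highest mean CPM and 3 of largest highest-to-lowest ratio, for genes called by edgeR or DESeq2, and for genes without overlap between the labels. Floors cover counting error only. No column was unmapped (0).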

Additional observations from a re-analysis of the deposited data

How the results depend on the processing

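Over all genes edgeR called 0, and DESeq2 138. DESeq2 called 2 sarcomere genes (Actc1 and Ldb3, both higher). limma-voom, the other scalings and the other filters called 0 of either. With 1 library left out, 0 to 29 genes (29 of 14607 tested without COR1, 11 of 14793 without VEH3) and 0 to 2 sarcomere genes (2 without COR1) were called. Leaving out COR2 and VEH2 together, chosen after the values were seen, gave 3 genes and 0 sarcomere genes. Same-numbered libraries did not pair (correlations of -0.153, -0.266 and -0.325), and with replicate number as a block 0 genes were called, with a sarcomere median of 0.117. Of 42 sarcomere genes, 40 kept their sign in every fit with all libraries; the exceptions were Tcap (-0.028 by limma-voom, -0.029 with the block) and Tpm1 (-0.001 by upper quartile, -0.032 by total counts), and 29 kept it with each library left out. Over these fits and that without COR2 and VEH2, the 13 others ranged from -0.042 to 0.062 (Tpm1), -0.108 to 0.154 (Tnni2), -0.289 to 0.091 (Lmod3), -0.196 to 0.095 (Myl1), -0.084 to 0.273 (Mybph), -0.024 to 0.263 (Myom1), -0.017 to 0.283 (Myom2), -0.312 to 0.277 (Myom3), -0.286 to 0.316 (Tcap), -0.057 to 0.696 (Myot), -0.221 to 0.159 (Pdlim3), -0.133 to 0.034 (Des) and -0.098 to 0.095 (Flnc). Myoz2 crossed 0 only without COR2 and VEH2, with a range of -0.528 to 0.061. Scaling by total counts put the median of all genes at -0.044, from 0.004, and that of the sarcomere genes at 0.06. The cause of these moves was not tested.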
